A study of Mus musculus with 8 samples.

Results

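The Hox genes are the transcription factor genes of 4 chromosomal clusters, Hoxa, Hoxb, Hoxc and Hoxd, and their levels were followed through 4 mouse models of endometrial cancer. Members were taken by symbol, as Hox with a cluster letter from a to d and a paralog number, which gave 39 of the 24419 gene symbols in the count table: 11 in Hoxa, 10 in Hoxb, 9 in Hoxc and 9 in Hoxd. Bulk RNA was sequenced in 8 libraries, 2 for each of the models TPK, TPM, TPMCa (TPMPik3ca in the labels) and TPMR1 (TPMPik3r1 in the labels). The labels give EC tumor organoids as the material, while the methods of the study describe tumor tissue collected after growth in the uterus of nude mice, so cells of the host can be part of each library.

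All 4 models started from uterus organoids of CAG-Cas9-EGFP mice, which express Cas9 throughout, and all carried edits that include an sgRNA against Trp53. TPM, TPMCa and TPMR1 also had Myc overexpressed from a cDNA, TPMCa added a cDNA of Pik3ca E545K, an activated catalytic subunit of phosphatidylinositol 3-kinase, and TPMR1 added an sgRNA against Pik3r1, the regulatory subunit. TPK had no Myc introduced. TPMCa and TPMR1 thus differ from TPM by 1 added alteration each. The edited organoids were injected into the left uterus of 8-week-old female nude mice. The study's legends give 2 mice for each model, so each model rests on tumors of 2 mice. The p-values set a difference against a spread estimated from all 8 libraries together.

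Levels are given as CPM, the reads of a gene per megaread of its library after TMM scaling. Total counts lay between 15748396 and 26943611 reads, 3 reads equalled 0.116 to 0.198 CPM, and the Hox genes together took 907 to 12531 reads. Each range runs from the lowest to the highest library. Of the 39 Hox genes, 29 reached 5 CPM in some library, 8 stayed under 3 CPM in every library without being absent, and 2, Hoxc12 and Hoxd12, had 0 reads throughout. After a filter on low counts, 31 entered the tests. Myc stood between 324 and 3075 CPM in the libraries of TPM, TPMCa and TPMR1 and at 154 and 92.8 CPM in TPK. Trp53, targeted in all models, lay between 33.2 and 130.7 CPM. Pik3ca lay at 89.9 and 83.3 CPM in TPMCa, little above the 60.9 to 80.1 CPM of the other models. Pik3r1 lay at 101 and 51.3 CPM in TPMR1 against 99.6 and 188 CPM in TPM. A read count does not show whether an edited transcript is functional. Replicates lay farthest apart in TPMR1, with 8.46% of the 15875 tested genes over 4-fold apart on the log2(CPM + 2) scale, against 1.64 to 2.61% in the other models. Of the 31 tested Hox genes, 10 were over 4-fold apart between the TPMR1 libraries and 10 between the TPMCa libraries, against 1 in TPM and 0 in TPK. Some results are therefore also given without replicate 2 of TPMR1. The spread does not show which of the TPMR1 libraries is atypical.

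Markers of epithelium differed between the models. The summed level of 6 epithelial markers, among them Epcam and Cdh1, lay between 2941 and 5498 CPM in the TPK and TPM libraries, between 23.7 and 73.3 CPM in TPMCa and between 6.47 and 27.4 CPM in TPMR1. All 6 stayed above 3 reads in every library. The 6 squamous markers summed to between 5338 and 20070 CPM in TPK and TPM and to between 1.28 and 12.2 CPM in TPMCa and TPMR1, and in TPMR1 the keratins Krt5, Krt6a and Krt17 and the gland factor Foxa2 had 0 reads in both libraries. The labelled endometrial cancer thus carried its defining epithelial markers at high levels in TPK and TPM and at low levels in TPMCa and TPMR1. In bulk RNA, fewer cells of a type and less RNA per cell cannot be told apart.

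Hox proteins bind DNA through a homeodomain, usually together with Pbx and Meis cofactors, and give cells a position along the body axis. Genes of each cluster lie in the order in which they are used from head to tail, so paralogs with low numbers mark anterior and those with high numbers posterior positions. In the female tract Hoxa9, Hoxa10, Hoxa11 and Hoxa13 are known for dividing the Mullerian duct into oviduct, uterus, cervix and upper vagina, and Hoxa10 and Hoxa11 are required in the adult uterus for implantation.

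Of the 39 genes, RefSeq promoter windows of build GRCm38.p6 could be matched for 22, with 24 windows in all. The 250 bases before the start site had a median of 12.5 CpG dinucleotides in the Hox windows and 6 in all 32851 windows, and a median GC content of 58.6% against 52.4%. The 4 windows below show Hoxb4 and Hoxb8, from the cluster whose genes changed most clearly between the models, and Hoxa9 and Hoxd8, from clusters with the opposite sign, all written 5′ to 3′ on the strand of the gene. They lie at chr11:96318017-96318266 (plus strand), chr11:96281655-96281904 (plus strand), chr6:52227371-52227620 (minus strand) and chr2:74704365-74704614 (plus strand). Capitals mark matches, none of which overlap, on either strand to TGATNNAT, a site of Hox with Pbx, to TTTATNG, a site of posterior Hox and Cdx proteins, or to CACGTG, the E-box that Myc binds.

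Hoxb4: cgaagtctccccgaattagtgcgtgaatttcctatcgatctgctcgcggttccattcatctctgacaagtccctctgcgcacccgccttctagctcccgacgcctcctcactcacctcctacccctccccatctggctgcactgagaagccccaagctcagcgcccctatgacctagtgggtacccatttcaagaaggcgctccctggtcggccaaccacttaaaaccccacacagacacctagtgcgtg
Hoxb8: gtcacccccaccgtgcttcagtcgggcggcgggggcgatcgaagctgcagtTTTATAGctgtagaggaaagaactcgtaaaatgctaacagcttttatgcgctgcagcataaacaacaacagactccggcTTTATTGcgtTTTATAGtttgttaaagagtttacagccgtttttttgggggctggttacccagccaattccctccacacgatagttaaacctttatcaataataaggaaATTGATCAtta
Hoxa9: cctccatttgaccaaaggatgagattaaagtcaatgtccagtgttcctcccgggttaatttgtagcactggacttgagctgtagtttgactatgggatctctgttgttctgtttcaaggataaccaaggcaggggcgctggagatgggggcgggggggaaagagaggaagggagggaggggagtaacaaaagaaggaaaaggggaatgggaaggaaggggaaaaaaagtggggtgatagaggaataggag
Hoxd8: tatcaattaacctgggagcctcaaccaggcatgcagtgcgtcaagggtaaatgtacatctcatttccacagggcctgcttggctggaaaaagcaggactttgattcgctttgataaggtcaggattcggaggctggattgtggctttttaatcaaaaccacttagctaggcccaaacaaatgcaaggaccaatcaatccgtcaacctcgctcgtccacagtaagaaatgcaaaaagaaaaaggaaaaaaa

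The Hoxb8 window held 3 matches to TTTATNG and 1 to TGATNNAT, and no match to the searched letters was found in the Hoxb4, Hoxa9 and Hoxd8 windows. TGATNNAT was present in 4 of the 24 Hox windows (16.7%) and in 7.68% of all windows. TTTATNG was present in 2 Hox windows (8.33%) and in 9.81% of all windows, and CACGTG in 4 Hox windows (16.7%) and in 6.02% of all. The matches are descriptions of the letters and no binding was measured.

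**Figure D1:**
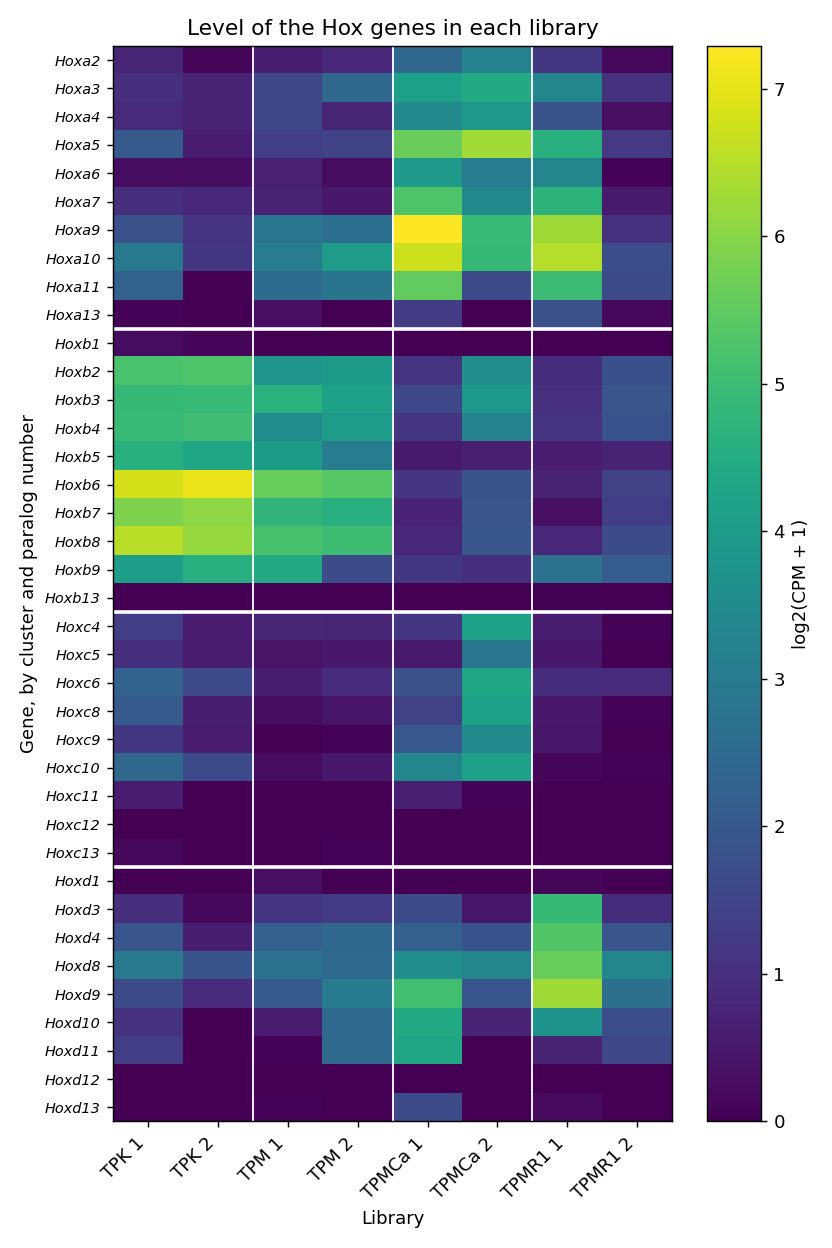
Heatmap of log2(CPM + 1) for the Hox genes reported here (rows, by cluster and paralog number, with white lines between clusters) in the 8 libraries (columns, 2 a model). Hoxb2 to Hoxb9 are bright in the TPK and TPM libraries, Hoxa genes in TPMCa 1, TPMCa 2 and TPMR1 1, Hoxc genes in TPMCa 2, and Hoxd genes in TPMR1 1.

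The clusters from which the summed Hox level came differed between the models. The sum was 445 and 429 CPM in TPK, 236 and 218 CPM in TPM, 557 and 345 CPM in TPMCa, and 485 and 50.4 CPM in TPMR1. The libraries of TPK and TPM took most of it from Hoxb, with 394 and 413 CPM in TPK and 192 and 153 CPM in TPM, against 8.61 and 43.4 CPM in TPMCa and 10.8 and 17.3 CPM in TPMR1. Hoxa gave 439.6 and 201 CPM in TPMCa and 268 CPM in replicate 1 of TPMR1, and 5.41 to 35.2 CPM in the remaining 5 libraries. Every TPMCa and TPMR1 library thus lay below every TPK and TPM library for Hoxb, whereas for Hoxa replicate 2 of TPMR1 lay among the TPK and TPM libraries.

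Each cluster is a compact run of genes. On GRCm38 the clusters span chr6:52155590-52260880 (Hoxa), chr11:96194316-96368256 (Hoxb), chr15:102921103-103036852 (Hoxc) and chr2:74668310-74765142 (Hoxd). Levels between genes were compared per kilobase of merged exons. On that scale Hoxb gave 93.0% ± 5.20 of the Hox signal in TPK, 78.3% ± 8.02 in TPM, 6.73% ± 7.24 in TPMCa and 18.5% ± 22.9 in TPMR1 (SD, n = 2 each). Hoxa gave 65.9% ± 10.5 in TPMCa and 35.5% ± 26.1 in TPMR1, and Hoxd gave 44.3% ± 1.80 in TPMR1 (SD, n = 2 each). Paralogs 9 to 13, the posterior genes, held 6.45% ± 1.74 in TPK, 17.2% ± 3.10 in TPM, 42.6% ± 30.7 in TPMCa and 48.5% ± 12.1 in TPMR1 (SD, n = 2 each). Paralogs 5 to 8 held 72.8% ± 1.39 in TPK and 59.8% ± 4.77 in TPM, mostly from Hoxb6, Hoxb7 and Hoxb8. The shares of paralogs 9 to 13 spread widely between the 2 TPMCa libraries, at 64.2 and 20.9%, so these means carry large errors.

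**Figure D2:**
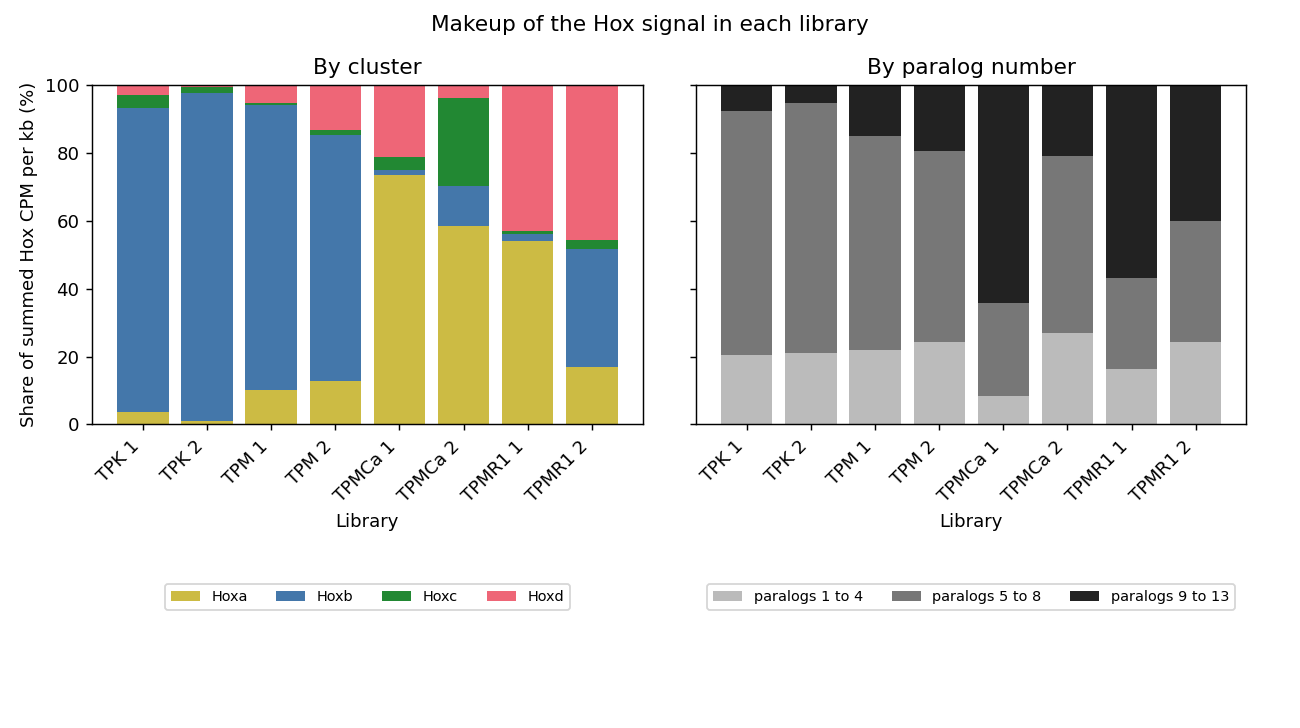
Stacked bars of the share (%) of the summed Hox CPM per kilobase in each library, by cluster on the left and by paralog number on the right. Hoxb fills between 72.6 and 96.7% of the bar in the 4 TPK and TPM libraries and between 1.61 and 34.7% in the 4 TPMCa and TPMR1 libraries.

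The genes with the most signal per kilobase differed accordingly. In each of the 4 TPK and TPM libraries they were Hoxb6, Hoxb7 and Hoxb8 in that order, with Hoxb6 at 56.7 and 68.7 CPM per kilobase in TPK and 24.1 and 20.9 CPM per kilobase in TPM. Replicate 1 of TPMCa was led by Hoxa9, Hoxa10 and Hoxa5, and replicate 2 by Hoxa5, Hoxc6 and Hoxa9. Replicate 1 of TPMR1 was led by Hoxd9, Hoxa10 and Hoxa9, and replicate 2 by Hoxd8, Hoxd9 and Hoxd11. By the root mean square difference over the 39 genes on the log2(CPM + 2) scale, the TPK libraries were nearest to each other (0.559), as were the TPM libraries (0.614). Replicate 1 of TPMCa was nearest to replicate 1 of TPMR1 (1.11), and replicate 2 of TPMR1 was nearest to replicate 2 of TPM (1.18).

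The comparison of TPMCa and TPMR1 with TPM asks what came with an added alteration of the PI3K pathway. A gene was called where the quasi-likelihood test of edgeR gave a p under 0.05 after Benjamini-Hochberg adjustment over all tested genes. Each log2 fold change is the mean of the log2 fold changes of TPMCa and of TPMR1 against TPM. DESeq2, an alternative count test, stands beside the counts. In the mean of the 2 models, Hoxb genes were lower and the genes of the other 3 clusters tended to be higher. All 8 tested Hoxb genes had a negative log2 fold change and all 23 tested genes of Hoxa, Hoxc and Hoxd a positive one. The models differed outside Hoxb. In TPMR1 alone against TPM, 4 of 6 tested Hoxc genes, 1 Hoxa gene and 1 Hoxd gene were lower. In TPMCa alone, 2 Hoxd genes were lower. The Hoxc median was 4.49 in TPMCa alone and -0.35 in TPMR1 alone. Hoxb5, Hoxb6, Hoxb7 and Hoxb8 fell (edgeR, adjusted p under 0.05), 4 of 31 tested Hox genes, where 7.44% of all tested genes fell, and 0 Hox genes rose, where 1.45% of all did. At an unadjusted p under 0.05, edgeR gave 12 Hox genes, 8 lower and 4 higher, where 24.9% of all tested genes passed. DESeq2 called 12, 7 lower and 5 higher, where it called 18.9% of all. The median log2 fold change was -3.37 in Hoxb, 2.30 in Hoxa, 1.88 in Hoxc and 1.72 in Hoxd, against 0.02 over all tested genes.

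Hoxb6 (chr11:96292476-96301569), the Hox gene with the most reads in TPM, stood at 111 and 135 CPM in TPK, 47.3 and 41.1 CPM in TPM, 1.20 and 2.62 CPM in TPMCa, and 0.620 and 1.67 CPM in TPMR1. Hoxb5, its neighbor in the cluster, stood at 23.1 and 18.3 CPM in TPK, 14.7 and 7.55 CPM in TPM, 0.443 and 0.557 CPM in TPMCa, and 0.465 and 0.667 CPM in TPMR1. Neither gene had a TPMCa or TPMR1 library within the range of TPM or TPK. Hoxb6 fell with a log2 fold change of -4.90 (SE 0.452, edgeR adjusted p = 0.00212) and Hoxb5 with -4.37 (SE 0.452, adjusted p = 0.00311). Both genes overlap the antisense gene Hoxb5os, and the strand setting of the counting is not given in the sources used here, so their reads and those of Hoxb5os cannot be told apart.

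Hoxb7 stood at 57.8 and 65.7 CPM in TPK, 26.2 and 23.2 CPM in TPM, 0.633 and 2.78 CPM in TPMCa, and 0.232 and 1.56 CPM in TPMR1. Hoxb8, known for blocking the maturation of myeloid cells when overexpressed, stood at 91.7 and 71.4 CPM in TPK, 34.9 and 31.6 CPM in TPM, 0.760 and 2.89 CPM in TPMCa, and 0.774 and 2.22 CPM in TPMR1. In both genes the highest TPMCa or TPMR1 library was replicate 2 of TPMCa, still far below the lowest TPM library. Hoxb7 fell, with a log2 fold change of -4.33 (SE 0.756, edgeR adjusted p = 0.0181) and so did Hoxb8, with -4.33 (SE 0.579, adjusted p = 0.00752).

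The anterior genes Hoxb2, Hoxb3 and Hoxb4 and the posterior gene Hoxb9 had smaller fitted differences and did not pass the test against TPM. Hoxb2, which acts in hindbrain patterning, stood at 35.8 and 37.8 CPM in TPK, 12.9 and 14.6 CPM in TPM, 1.14 and 11.2 CPM in TPMCa, and 0.929 and 2.45 CPM in TPMR1, with a log2 difference of -2.09 (SE 0.791, edgeR adjusted p = 0.166). Hoxb3 stood at 28.5 and 29.7 CPM in TPK, 24.1 and 17.2 CPM in TPM, 1.96 and 13.9 CPM in TPMCa, and 1.05 and 2.78 CPM in TPMR1, with -2.41 (SE 0.730, adjusted p = 0.0983). Hoxb4, known for expanding blood stem cells when overexpressed, stood at 29.1 and 32.2 CPM in TPK, 11.2 and 15.4 CPM in TPM, 1.20 and 8.46 CPM in TPMCa, and 1.12 and 2.56 CPM in TPMR1, with -2.16 (SE 0.713, adjusted p = 0.122). For these anterior genes replicate 2 of TPMCa lay close under the TPM libraries and the other TPMCa and TPMR1 libraries lay at 2.78 CPM or lower. Hoxb9 stood at 15.9 and 22.7 CPM in TPK, 20.9 and 2.17 CPM in TPM, 1.27 and 1.002 CPM in TPMCa, and 5.58 and 3.39 CPM in TPMR1, with -2.35 (SE 0.787, adjusted p = 0.126), and replicate 2 of TPM lay below both TPMR1 libraries. The remaining Hoxb genes, Hoxb1 and Hoxb13, had at most 3 reads in any library and were not tested.

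These counts moved when replicate 2 of TPMCa or of TPMR1 was left out, and the share of all tested genes called moved too. Without replicate 2 of TPMCa, the log2 fold changes of Hoxb2, Hoxb3 and Hoxb4 were -3.30, -3.41 and -3.16. Without replicate 2 of TPMR1, Hoxb5 to Hoxb8 had log2 fold changes of -4.51, -5.33, -5.26 and -4.79. Without replicate 1 of TPMR1, the same Hoxb genes had -4.25, -4.62, -3.91 and -4.03. Hoxa7 had 5.51 and Hoxa9 3.84 without replicate 2 of TPMR1. That fit dropped the TPMCa or TPMR1 library with the lowest summed Hoxa level, 9.45 CPM, so higher Hoxa values follow from that choice. Across the 8 fits that each left out 1 library, Hoxb5, Hoxb6 and Hoxb8 were called lower every time.

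**Figure D3:**
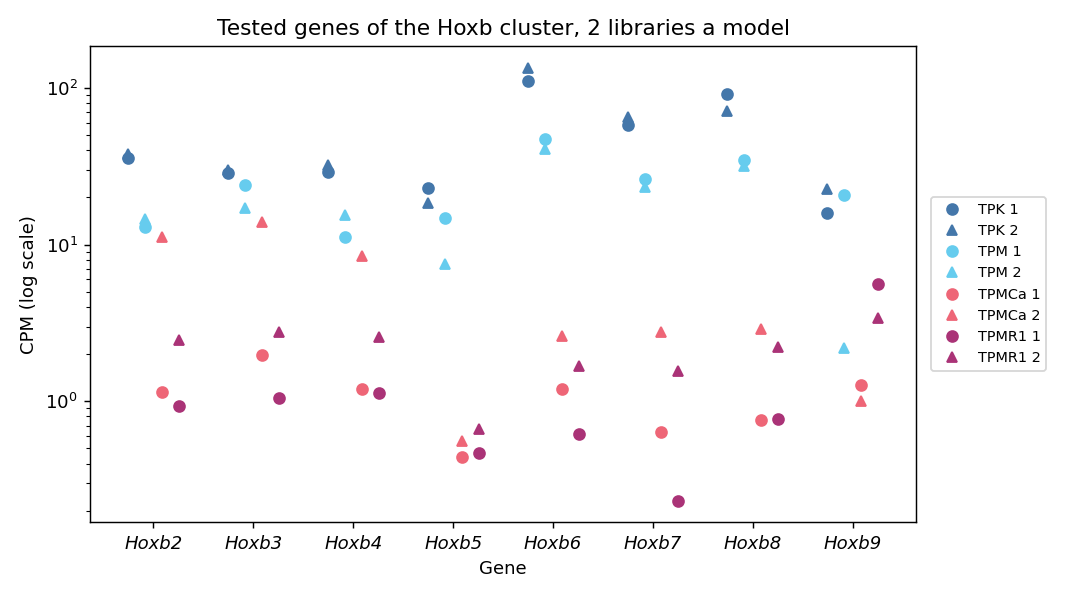
CPM on a log axis of the 8 tested Hoxb genes in the 8 libraries; circles are replicate 1 and triangles replicate 2, colored by model. For Hoxb5 to Hoxb8 the TPMCa and TPMR1 points lie at 2.89 CPM or lower and the TPK and TPM points at 7.55 CPM or higher.

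Hoxb genes and epithelial markers were low in the same 4 libraries. Over all tested genes, 14.8% had every TPMCa and TPMR1 library below every TPK and TPM library, and 7 of the 31 tested Hox genes did, Hoxb2 to Hoxb8. The opposite order was found in 10% of all tested genes and in 1 Hox gene, Hoxd8. Whether the share of epithelial cells had a part in the Hoxb levels was not tested, and with every TPMCa and TPMR1 library low in those markers the model and the epithelial level cannot be told apart.

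Most Hoxa genes were at their highest in 3 of the 4 TPMCa and TPMR1 libraries, with replicate 2 of TPMR1 apart. The 5 uterine stroma markers summed to 172 and 531 CPM in TPMCa and 157 and 265 CPM in TPMR1, against 74.5 to 180.2 CPM in TPM and TPK. Replicate 1 of TPMCa and of TPMR1 thus lay within the range of TPM and TPK. Esr1 gave 141.6 and 132.5 CPM of the TPMR1 sums and stood at 81.7 and 148.9 CPM in TPK. Tcf21 stood at 0.387 and 1.0005 CPM in TPMR1 against 3.07 and 3.37 CPM in TPM, and Hand2 in TPMR1 lay between the TPM libraries. Vcan and Pgr lay below both TPM libraries in replicate 1 of TPMR1 and above both in replicate 2. The part of these markers in the Hoxa levels was not tested. Hoxa9, which marks the oviduct part of the Mullerian duct and drives leukemia when overexpressed, stood at 2.51 and 1.19 CPM in TPK, 6.32 and 5.38 CPM in TPM, 156 and 29.996 CPM in TPMCa, and 75.1 and 1.06 CPM in TPMR1. Hoxa10, the uterine gene, stood at 6.74 and 1.25 CPM in TPK, 7.47 and 14.9 CPM in TPM, 105 and 28.8 CPM in TPMCa, and 88.7 and 2.33 CPM in TPMR1. Hoxa11, required with it for implantation, stood at 3.77 and 0 CPM in TPK, 4.88 and 5.95 CPM in TPM, 45.6 and 2.23 CPM in TPMCa, and 30.7 and 2.22 CPM in TPMR1. In each of the 3 genes replicate 2 of TPMR1 was no higher than TPM, and for Hoxa11 replicate 2 of TPMCa was also below TPM. Their log2 fold changes against TPM were 3.35 (SE 1.56), 2.30 (SE 1.43) and 1.87 (SE 1.82), with edgeR adjusted p of 0.243, 0.369 and 0.565.

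The middle Hoxa genes showed the widest gaps. Hoxa5, which acts in lung and thoracic patterning, stood at 3.14 and 0.461 CPM in TPK, 1.57 and 1.83 CPM in TPM, 48.3 and 77.2 CPM in TPMCa, and 23.5 and 1.33 CPM in TPMR1. Hoxa6 stood at 0.171 and 0.198 CPM in TPK, 0.602 and 0.172 CPM in TPM, 14.2 and 7.57 CPM in TPMCa, and 9.02 and 0.0556 CPM in TPMR1. Hoxa7 stood at 1.03 and 0.791 CPM in TPK, 0.662 and 0.400 CPM in TPM, 37.6 and 10.02 CPM in TPMCa, and 25.2 and 0.445 CPM in TPMR1. All 3 genes were above every TPM library in TPMCa 1, TPMCa 2 and TPMR1 1 and below every TPM library or within their range in TPMR1 2. The log2 fold changes were 4.04 (SE 1.34, edgeR adjusted p = 0.123), 4.17 (SE 1.73, adjusted p = 0.197) and 5.03 (SE 1.66, adjusted p = 0.123).

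Of the anterior Hoxa genes, Hoxa2, which sets the identity of a pharyngeal arch, stood at 0.686 and 0.0659 CPM in TPK, 0.542 and 0.801 CPM in TPM, 4.56 and 8.46 CPM in TPMCa, and 1.28 and 0.111 CPM in TPMR1. Hoxa3, needed for the thymus and parathyroid, stood at 1.03 and 0.659 CPM in TPK, 1.99 and 4.46 CPM in TPM, 16.5 and 21.1 CPM in TPMCa, and 9.10 and 1.11 CPM in TPMR1. Hoxa4 stood at 0.857 and 0.659 CPM in TPK, 1.99 and 0.686 CPM in TPM, 10.01 and 13.7 CPM in TPMCa, and 2.63 and 0.222 CPM in TPMR1. In these genes TPMCa replicate 2 was the highest library. Hoxa13 stayed at 2.52 CPM or lower in every library. The annotated span of Hoxa3 covers Hoxa4, Hoxa5 and Hoxa6 on the same strand, so reads of these genes may have been divided between them.

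Hoxd8 was the single Hox gene with all 4 TPMCa and TPMR1 libraries above all TPM and TPK libraries, at 6.74 and 2.70 CPM in TPK, 5.599 and 4.58 CPM in TPM, 10.9 and 9.18 CPM in TPMCa, and 47.0 and 9.17 CPM in TPMR1. Its log2 fold change was 1.72 (SE 0.751, edgeR adjusted p = 0.215), and 2.09 without replicate 2 of TPMR1. Hoxd9 stood at 2.23 and 0.857 CPM in TPK, 3.07 and 7.04 CPM in TPM, 32.6 and 2.84 CPM in TPMCa, and 75.5 and 5.45 CPM in TPMR1. Hoxd3, a patterning gene of the upper neck vertebrae, stood at 0.972 and 0.132 CPM in TPK, 1.20 and 1.43 CPM in TPM, 2.15 and 0.390 CPM in TPMCa, and 28.6 and 0.945 CPM in TPMR1. The highest library of Hoxd3, Hoxd8 and Hoxd9 was replicate 1 of TPMR1.

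Hoxd4, which lies within the annotated span of Hoxd3, stood at 2.80 and 0.527 CPM in TPK, 3.67 and 4.40 CPM in TPM, 3.67 and 2.56 CPM in TPMCa, and 38.9 and 2.78 CPM in TPMR1. Hoxd10, a limb and spinal cord gene, stood at 1.09 and 0 CPM in TPK, 0.482 and 4.63 CPM in TPM, 20.4 and 0.612 CPM in TPMCa, and 12.4 and 2.39 CPM in TPMR1. Hoxd11, which patterns the forearm with Hoxa11, stood at 1.49 and 0 CPM in TPK, 0.0602 and 4.69 CPM in TPM, 18.7 and 0 CPM in TPMCa, and 0.620 and 1.95 CPM in TPMR1. Replicate 1 of TPMCa was the highest library for Hoxd10 and Hoxd11, whereas replicate 2 of TPMCa had 11 and 0 reads of them. Hoxd1 and Hoxd13 reached 2.22 CPM at most and Hoxd12 had 0 reads in every library.

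**Figure D4:**
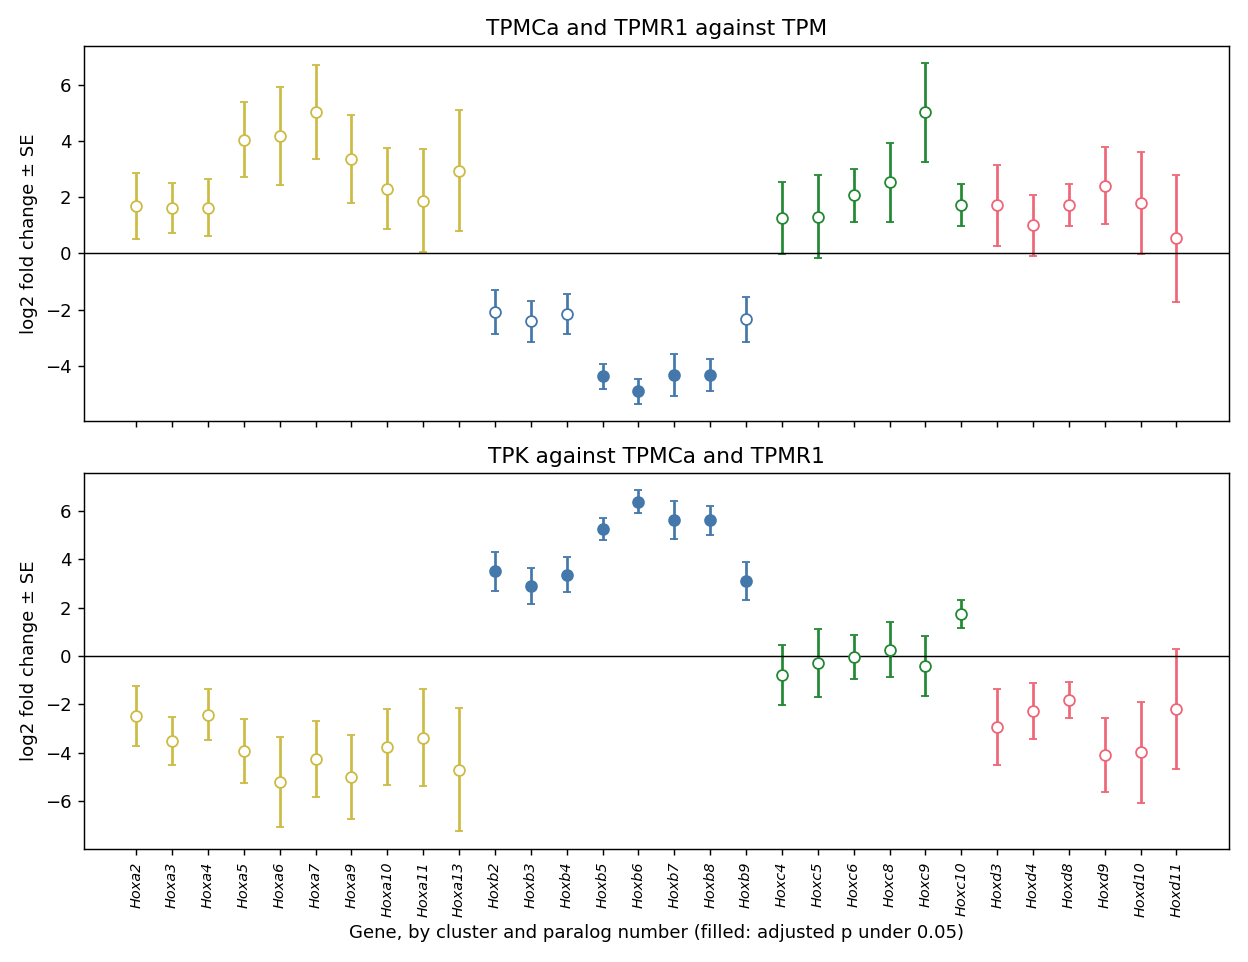
Log2 fold change ± SE (edgeR) of the tested Hox genes reported here, in TPMCa and TPMR1 against TPM (top) and TPK against TPMCa and TPMR1 (bottom), colored by cluster and filled where the adjusted p is under 0.05. The filled points are Hoxb5 to Hoxb8 in the top panel, between -4.90 and -4.33, and Hoxb2 to Hoxb9 in the bottom panel, between 2.90 and 6.38.

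The comparison of TPK with TPMCa and TPMR1 uses the same TPMCa and TPMR1 libraries as the one with TPM, so its values are set beside those above and are not a second test of them. All 8 tested Hoxb genes were higher in TPK (edgeR, adjusted p under 0.05), where 10.3% of all tested genes were, and 0 Hox genes were lower, where 4.06% of all were. DESeq2 called 18, 8 higher and 10 lower, where it called 27.3% of all tested genes. edgeR gave 17 at an unadjusted p under 0.05, 9 higher and 8 lower, where 32% of all passed. Hoxb6 was higher with a log2 fold change of 6.38 (SE 0.474, adjusted p = 0.00101), Hoxb8 with 5.62 (SE 0.602, adjusted p = 0.00302), Hoxb7 with 5.65 (SE 0.785, adjusted p = 0.00692) and Hoxb5 with 5.27 (SE 0.463, adjusted p = 0.00161).

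The outer genes of the cluster passed the test by less. The log2 fold changes of Hoxb2, Hoxb3, Hoxb4 and Hoxb9 were 3.51, 2.90, 3.36 and 3.09, with SEs of 0.802, 0.733, 0.721 and 0.792 and edgeR adjusted p of 0.0337, 0.0447, 0.0277 and 0.0462. The tested Hoxa genes had a median of -3.78 and those of Hoxd -2.60, all with a negative sign and none past the test, and Hoxc had 2 positive and 4 negative values. In this comparison 4 Hox genes were called without replicate 1 or replicate 2 of TPK, 5 without replicate 1 or replicate 2 of TPM, and 16 without replicate 2 of TPMR1. In the last of these fits 9 Hox genes were lower in TPK, 7 of them in Hoxa, where 5.9% of all tested genes were lower.

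TPMCa alone against TPM asks about the activated catalytic subunit. Hoxb5, Hoxb6 and Hoxb8 fell, where 3.02% of all tested genes fell, and Hoxc10 rose, where 0.466% of all rose (edgeR, adjusted p under 0.05). Hoxc10, a posterior gene of the hindlimb and lumbar spinal cord, stood at 4.40 and 2.11 CPM in TPK, 0.181 and 0.400 CPM in TPM, 9.25 and 16.3 CPM in TPMCa, and 0.0774 and 0.0556 CPM in TPMR1, which rests on 3 and 7 reads in TPM and 146 and 292 in TPMCa. Its log2 fold change was 5.42 (SE 0.817, adjusted p = 0.0237), and the ratio of pooled levels was 44.2 (exact 95% counting interval 23.8 to 92.9). Hoxb6 changed by -4.52 (SE 0.590, adjusted p = 0.0162), Hoxb5 by -4.45 (SE 0.601, adjusted p = 0.0180) and Hoxb8 by -4.17 (SE 0.759, adjusted p = 0.0384).

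These 4 calls depended on the libraries in the fit. Across the fits without 1 library, the edgeR log2 fold change lay between -4.86 and -3.88 in Hoxb5 and between -5.19 and -4.06 in Hoxb6. It lay between -5.44 and -3.50 in Hoxb8 and between 4.96 and 6.08 in Hoxc10. None of these genes was called in every one of these fits. The share of all tested genes called moved in the same way, so this is not particular to Hox genes. In the full set DESeq2 called 16, where it called 16.1% of all tested genes. edgeR gave 16 at an unadjusted p under 0.05, 11 higher and 5 lower, where 22.1% of all passed. The 12 genes without replicate 2 of TPMR1 were Hoxb5 to Hoxb8 lower and Hoxa3 to Hoxa7, Hoxa9, Hoxc9 and Hoxc10 higher, where 2.93% of all tested genes were higher.

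The 6 tested Hoxc genes were at their highest in replicate 2 of TPMCa. Hoxc6, which is active in mammary gland and thorax, stood at 3.94 and 2.04 CPM in TPK, 0.542 and 0.915 CPM in TPM, 2.47 and 18.6 CPM in TPMCa, and 0.929 and 0.834 CPM in TPMR1. Hoxc4 stood at 1.49 and 0.461 CPM in TPK, 0.722 and 0.686 CPM in TPM, 1.20 and 16.9 CPM in TPMCa, and 0.542 and 0.0556 CPM in TPMR1. Hoxc8, a gene of the thoracic skeleton, stood at 3.20 and 0.527 CPM in TPK, 0.181 and 0.343 CPM in TPM, 1.71 and 17.1 CPM in TPMCa, and 0.426 and 0.0556 CPM in TPMR1. In these genes replicate 2 of TPMCa was the highest library and replicate 1 of TPMCa lay within the range of the TPK libraries. Hoxc9, which sets motor neuron identity, stood at 1.26 and 0.461 CPM in TPK, 0 and 0.0572 CPM in TPM, 2.91 and 9.91 CPM in TPMCa, and 0.387 and 0 CPM in TPMR1, and with 0 and 1 reads in TPM the ratio of TPMCa to TPM was 226 with an exact 95% counting interval from 40.2 to 8974. Hoxc5, whose annotated span covers Hoxc6, Hoxc8, Hoxc9 and Hoxc10, stood at 0.972 and 0.461 CPM in TPK, 0.301 and 0.400 CPM in TPM, 0.443 and 6.34 CPM in TPMCa, and 0.426 and 0 CPM in TPMR1. Hoxc11, Hoxc12 and Hoxc13 reached 0.57 CPM at most.

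TPMR1 alone against TPM asks about the regulatory subunit. Hoxb5, Hoxb6, Hoxb7 and Hoxb8 fell, where 4.5% of all tested genes fell, and 0 Hox genes rose, where 1.08% of all rose (edgeR, adjusted p under 0.05). The log2 fold changes were -5.29 in Hoxb6 (SE 0.614, adjusted p = 0.00864), -4.81 in Hoxb7 (SE 1.02, adjusted p = 0.0466), -4.48 in Hoxb8 (SE 0.770, adjusted p = 0.0272) and -4.29 in Hoxb5 (SE 0.592, adjusted p = 0.0153). At an unadjusted p under 0.05, edgeR gave 9 Hox genes, 2 higher and 7 lower, where 23.1% of all tested genes passed, a share near theirs. DESeq2 called 9, 2 higher and 7 lower, where it called 17.5% of all. Across the fits without 1 library, the log2 fold change lay between -6.14 and -4.72 in Hoxb6 and between -6.69 and -3.98 in Hoxb7. It lay between -5.41 and -3.90 in Hoxb8 and between -4.69 and -3.71 in Hoxb5. Hoxb5, Hoxb7 and Hoxb8 were not called in every one of these fits. The share of all tested genes called moved between the fits as well. Without replicate 2 of TPMR1, Hoxa7 had 5.55 and Hoxd8 3.21, which rest on replicate 1 alone. This comparison and that of TPMCa with TPM share the TPM libraries.

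Between TPK and TPM, the 2 models high in epithelial markers, edgeR called 0 of 31 Hox genes at an adjusted p under 0.05, where 0% of all tested genes were called. At an unadjusted p under 0.05, edgeR gave 3 Hox genes, Hoxb6, Hoxc9 and Hoxc10, where 7.17% of all tested genes passed, and DESeq2 called 1, Hoxc10, where 1.52% did. Hoxb6 had a log2 difference of 1.48 (SE 0.511, edgeR adjusted p = 0.678). All 8 tested Hoxb genes had a positive log2 difference, with a median of 1.25, and all 6 tested Hoxd genes a negative one, with a median of -1.46. A p over the threshold does not show that the models were alike in these genes.

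Between TPMR1 and TPMCa, edgeR called 0 of 31 Hox genes, where 0% of all tested genes were called. At an unadjusted p under 0.05 it gave 7 Hox genes, all lower in TPMR1, where 11.8% of all tested genes passed, and DESeq2 called 5, Hoxc4, Hoxc6, Hoxc8, Hoxc9 and Hoxc10, where 4.86% of all were called. Hoxc10 had 2 and 1 reads in TPMR1 and 146 and 292 in TPMCa, a ratio of TPMCa to TPMR1 of 189.5 with an exact 95% counting interval from 64.4 to 922 (edgeR adjusted p = 0.287). Without replicate 2 of TPMR1, the log2 difference of TPMR1 from TPMCa in Hoxc10 was -7.24. All 6 tested Hoxc genes had a negative log2 difference, with a median of -4.89, the 11 Hoxa genes had a median of -1.28 and the 6 Hoxd genes of 1.34.

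The genes next to the Hoxb cluster were compared to see how far the change reached along chromosome 11. Of the 5 protein-coding genes on each side, 9 were tested and 0 passed the test in TPMCa and TPMR1 against TPM (edgeR adjusted p under 0.05). Over all tested genes, 1.45% were higher and 7.44% lower, so 0 of 9 does not show where the change ends. At an unadjusted p under 0.05 edgeR gave 1 lower and 0 higher, where 24.9% of all passed. DESeq2 called 1 lower, where it called 18.9% of all. Their log2 differences lay between -3.14, in the sparse gene Ttll6 (SE 1.76), and 0.74, with a median of -0.19, against -3.37 in the cluster. Snx11, a sorting nexin, had -1.23 (SE 0.305, adjusted p = 0.0553) against TPM, and in TPK against TPMCa and TPMR1 it was higher by 1.57 (SE 0.303, adjusted p = 0.0202). Within the cluster the fitted differences were deepest in Hoxb5 to Hoxb8, which lie in its middle. Of the genes beside the other clusters, 1 of 9 next to Hoxa, 0 of 10 next to Hoxc and 0 of 9 next to Hoxd passed against TPM. The same shares over all tested genes apply to these counts.

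**Figure D5:**
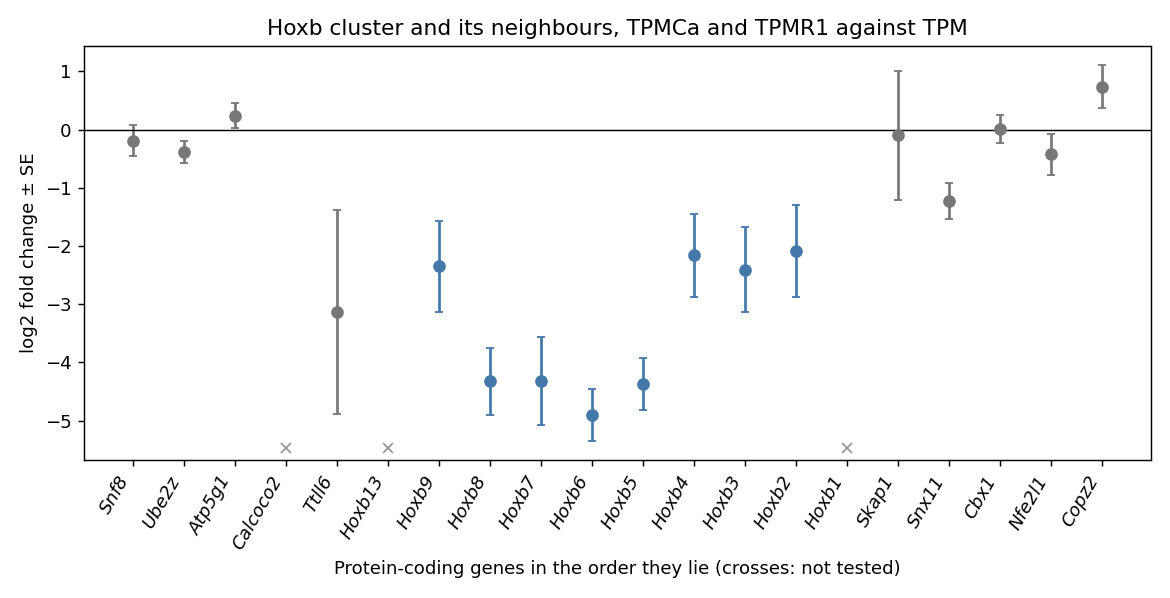
Log2 fold change ± SE (edgeR) in TPMCa and TPMR1 against TPM of the Hoxb genes (blue) and the 5 protein-coding genes on each side (gray), in the order they lie; distances are not to scale and crosses mark genes not tested. Hoxb5 to Hoxb8 lie between -4.90 and -4.33 and the tested neighbors other than Ttll6 between -1.23 and 0.74.

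Noncoding genes lie inside the clusters, between and opposite the Hox genes. Of 15 listed, 14 were in the table and 9 were tested, with 1 called lower and 0 higher against TPM (edgeR, where 7.44% of all tested genes were lower and 1.45% higher) and 1 lower and 1 higher in DESeq2. This was Hoxb5os, antisense to Hoxb5 and Hoxb6, at 6.12 and 9.56 CPM in TPK, 5.42 and 3.89 CPM in TPM, 0 and 0.167 CPM in TPMCa, and 0 and 0.111 CPM in TPMR1 (edgeR adjusted p = 0.0188). Hoxb5os was near or at 0 reads in the 4 TPMCa and TPMR1 libraries. In TPK against TPMCa and TPMR1 it was again the single one called by edgeR, higher in TPK (edgeR adjusted p = 0.0111). Over all tested genes, 10.3% were higher and 4.06% lower. At an unadjusted p under 0.05, edgeR gave 2 noncoding genes higher and 3 lower, where 32% of all passed. DESeq2 called 2 higher and 3 lower, where it called 27.3% of all. Of 9 ParaHox, Evx, Mnx1 and Cdx genes, the homeobox genes most related to the clusters, 0 had enough reads to be tested.

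Of 9 Pbx, Meis and Pknox cofactor genes, all tested, 2 rose and 0 fell against TPM (edgeR, adjusted p under 0.05, where 1.45% of all tested genes rose and 7.44% fell), with a median log2 fold change of 0.08 against 0.02 over all genes. Pbx3, a Hox partner, stood at 18.3 and 20.1 CPM in TPK, 12.5 and 8.87 CPM in TPM, 24.5 and 39.2 CPM in TPMCa, and 35.0 and 50.5 CPM in TPMR1, a log2 fold change of 1.79 (SE 0.357, adjusted p = 0.0280). Pknox2, a partner of Pbx, stood at 4.57 and 2.11 CPM in TPK, 2.11 and 1.83 CPM in TPM, 13.9 and 7.85 CPM in TPMCa, and 15.1 and 18.5 CPM in TPMR1, a change of 2.78 (SE 0.558, adjusted p = 0.0288). Both genes were higher in every TPMCa and TPMR1 library than in any TPM library. In TPK against TPMCa and TPMR1, 1 of the 9 was higher, where 10.3% of all tested genes were, namely Meis2 by 0.83 (SE 0.207, adjusted p = 0.0425).

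Retinoic acid induces Hox genes in the embryo, and 5 of 17 tested genes of its axis fell against TPM, where 7.44% of all tested genes fell, while 0 rose, where 1.45% did (edgeR, adjusted p under 0.05, median -1.01). DESeq2 called 5 lower and 1 higher. The 5 genes lower in edgeR were Stra6, a retinol carrier, at -5.24 (SE 0.597, adjusted p = 0.00427), Aldh1a3, which makes retinoic acid, at -4.95 (SE 0.679, adjusted p = 0.00795), Rdh10, which oxidizes retinol, at -2.43 (SE 0.341, adjusted p = 0.00852), Rxra, a receptor, at -1.17 (SE 0.201, adjusted p = 0.0171), and Crabp2. The axis did not fall as a whole. In TPMR1 alone against TPM, edgeR called 4 of 17 lower and 1 higher, where 4.5% and 1.08% of all tested genes were. Aldh1a1 stood at 6003 and 276 CPM in TPMR1, 30.6 and 48.9 CPM in TPMCa, and 11.1 and 20.5 CPM in TPM. Aldh1a2 stood at 38.99 and 53.03 CPM in TPMR1, 10.96 and 3.896 CPM in TPMCa, and 1.02 and 12.01 CPM in TPM. In TPK against TPMCa and TPMR1, edgeR called 7 of 17 higher and 0 lower, where 10.3% of all tested genes were higher and 4.06% lower, and DESeq2 called 7 higher and 3 lower. Of 22 tested Trithorax and Polycomb genes, which maintain Hox states, edgeR called 0 against TPM (median -0.04), where 1.45% of all rose and 7.44% fell. At an unadjusted p under 0.05 it gave 2 higher and 3 lower, where 24.9% of all passed. DESeq2 called 1 higher and 1 lower, where it called 18.9% of all. In the TPK comparison edgeR called 1 of the 22 higher and 1 lower, where 10.3% of all tested genes were higher and 4.06% lower. Phc2 was higher by 1.10 (edgeR adjusted p = 0.0295) and Psip1 was lower, at -1.44 (edgeR adjusted p = 0.0170). DESeq2 also called 1 higher and 1 lower, where it called 27.3% of all.

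Other position factors of the urogenital tract moved in both directions. Of 19 tested, 2 rose and 5 fell against TPM (edgeR, where 1.45% of all tested genes rose and 7.44% fell), with a median of -0.65. Pax8, a Mullerian epithelial factor, stood at 6.57 and 44.0 CPM in TPK, 26.4 and 12.3 CPM in TPM, 0.317 and 0.111 CPM in TPMCa, and 0 and 0.0556 CPM in TPMR1 (edgeR adjusted p = 0.00752). Pax2, its relative, stood at 4.06 and 7.52 CPM in TPK, 2.83 and 8.52 CPM in TPM, 0 and 0 CPM in TPMCa, and 0 and 0 CPM in TPMR1 (adjusted p = 0.0116). Both genes were at or near 0 reads in TPMCa and TPMR1. Gata4, a gonadal and mesenchymal factor, stood at 1.09 and 1.45 CPM in TPK, 0 and 0 CPM in TPM, 5.32 and 11.3 CPM in TPMCa, and 137 and 183 CPM in TPMR1 (adjusted p = 0.00168). Foxa2, needed for uterine glands, stood at 7.83 and 41.8 CPM in TPK, 5.599 and 6.18 CPM in TPM, 0.253 and 0.223 CPM in TPMCa, and 0 and 0 CPM in TPMR1 (adjusted p = 0.00986). Pax8, Pax2 and Foxa2 were at 0.32 CPM or lower in all TPMCa and TPMR1 libraries, and Gata4 was highest in TPMR1. The remaining called genes were Foxf2 and Wnt7a, lower, and Nr5a1, higher. The 6 steroidogenic markers, Nr5a1 among them, summed to 5079 and 446 CPM in TPMR1 against 6.46 to 22.7 CPM elsewhere, and replicate 1 of TPMR1, with the higher sum, was also the library highest in Hoxd3, Hoxd4, Hoxd8 and Hoxd9, a relation that was not tested. Of 9 tested uterine genes linked to Hoxa10 or Hoxa11, such as Pgr and Esr1, edgeR called 0 against TPM, with a median of -0.34. Over all tested genes 1.45% rose and 7.44% fell. In this list 1 gene was higher at an unadjusted p under 0.05 in edgeR, where 24.9% of all passed. DESeq2 called 1 higher, where it called 18.9% of all.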

How the data were processed

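Total RNA was extracted with TRIzol and sequenced as 150 bp paired-end reads on a NovaSeq. Per the methods of the study, reads were cleaned by a company and aligned to mm10 with STAR; the counter, annotation and strand setting are not given in the sources used here. The values used are the read counts per gene symbol that the authors deposited, not normalized; a DESeq2-normalized table was not used. Of the 24419 symbols, 25 had been turned into dates and none of these is a Hox gene. The column headings write TPMS for TPM.

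Genes passing filterByExpr (15875) were fitted in edgeR 4.0.16 on R 4.3.3 with TMM scaling and its quasi-likelihood test, all 8 libraries and model as the only term, and Benjamini-Hochberg adjustment over all genes. The mean of the TPMCa and TPMR1 coefficients was set against TPM or TPK, and 4 further pairs of models were tested. The standard error is the log2 fold change divided by the square root of F, and the common dispersion was 0.269. Scripts were tested on simulated counts. DESeq2 1.42.0, other scalings, filters, samples and a replicate block were alternatives.

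Exon lengths and cluster positions come from GENCODE M21 (GRCm38, equal to mm10), promoters from RefSeq. Of the 39 genes, 23 overlap another annotated gene, 15 of them on the same strand and 14 on the opposite strand, so their reads are uncertain where the counting could split them. Levels in every library are given for Hox genes called in any comparison or reaching 5 CPM, and the others by range; of other lists, the called genes with the 4 lowest adjusted p are named. The members and lists were chosen with earlier results of these data known. Some genes are counted but not reported here.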

Additional observations from a re-analysis of the deposited data

Results flagged for a closer look

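In 2 Hox genes, both TPMCa libraries lay above both TPM libraries and both TPMR1 libraries below them. The share of all tested genes with this order was not counted, so the 2 genes are not shown to stand out. Hoxc4 stood at 1.49 and 0.461 CPM in TPK, 0.722 and 0.686 CPM in TPM, 1.20 and 16.9 CPM in TPMCa, and 0.542 and 0.0556 CPM in TPMR1. The log2 difference of TPMR1 from TPMCa was -4.84 (SE 1.57, edgeR adjusted p = 0.380). Hoxc10 stood at 4.40 and 2.11 CPM in TPK, 0.181 and 0.400 CPM in TPM, 9.25 and 16.3 CPM in TPMCa, and 0.0774 and 0.0556 CPM in TPMR1. The log2 difference of TPMR1 from TPMCa was -7.42 (SE 0.918, edgeR adjusted p = 0.287), and without replicate 2 of TPMR1 it was -7.24. With all libraries neither difference passed the test. The TPM and TPMR1 levels of Hoxc10 rest on 1 to 7 reads a library, and those of Hoxc4 on 1 to 14.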

How the results depend on the processing

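No call of a Hox gene changed direction under any alternative run: of 312 alternative values of the 20 called gene results, 235 stayed past the threshold, 77 did not and 0 reversed. The number of Hox genes called depended more on the test and the libraries. For TPMCa and TPMR1 against TPM (4 called), DESeq2 called 12, and leaving out 1 library gave 3 to 10. For TPK against TPMCa and TPMR1 (8), DESeq2 called 18, a fit of only the models compared 5, TPMCa and TPMR1 as 1 group 4, and leaving out 1 library 4 to 16. For TPMCa against TPM (4), DESeq2 called 16, only the models compared 8, and leaving out 1 library 0 to 12. For TPMR1 against TPM (4), DESeq2 called 9, only the models compared 0, and leaving out 1 library 1 to 9. For TPK against TPM (0), DESeq2 called 1, and for TPMR1 against TPMCa (0) it called 5, with 0 to 1 when 1 library was left out. The share of all tested genes called also moved with the library left out, so a moving count is not particular to Hox genes. The cause of these differences was not tested. A fit that leaves out 1 of a model's 2 libraries assumes that the lone library varies like the others.

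Same-numbered libraries did not deviate together over all tested genes (correlations from -0.08 to 0.02). These correlations cannot show whether same-numbered libraries shared a batch, and the labels give only the number. With the replicate number as a block, 4, 7, 3 and 4 Hox genes were called in the comparisons above, in that order, and 0 in the last 2. Hoxb8 in TPMCa against TPM and Hoxb9 in TPK against TPMCa and TPMR1 then missed the threshold (edgeR adjusted p = 0.0513 and 0.0550). The Hoxb share under counts not divided by length or divided by coding length, chosen after seeing the data, stayed within 1 SD of the value given for each model, as did that of paralogs 9 to 13. Fitted folds of genes with fewer than 10 reads in a model depend on the prior count.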
